A study of Mus musculus with 9 samples.

Results

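Transcripts of 36 genes of glucose metabolism and the hypoxia response were examined in macrophages given oxidized low-density lipoprotein (ox-LDL), with and without the phosphatase MKP5. The members were chosen by gene symbol as a list of glycolysis, pentose phosphate pathway and hypoxia-response genes, and make up 36 of the 56775 genes listed in the deposited tables. All 36 were found. Of these, 35 had enough reads to be among the 14727 genes tested, and Adm was the exception.

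RNA sequencing covered 9 libraries of bone marrow-derived macrophages of C57BL/6 background, in 3 groups of 3. The groups were MKP5-/- cells (MKP5-KO) after 24 h with ox-LDL, wild-type (WT) cells after 24 h with ox-LDL, and WT cells at 0 h, which had no treatment. Ox-LDL was given at 20 µg/mL, and every culture had first been differentiated over 7 days with 15% medium conditioned by L-929 fibroblasts, a source of M-CSF. MKP5, encoded by Dusp10, removes phosphate from the stress-activated kinases p38 and JNK. The labels do not describe the knockout allele or say whether the replicates came from separate mice or cultures, so p-values measure only the spread between these libraries. Neither untreated MKP5-KO cells nor WT cells cultured to 24 h without ox-LDL are analysed here, so WT at 24 h against WT at 0 h joins ox-LDL with a day in culture, and the genotypes are compared in treated cells only.

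Glycolysis splits glucose into pyruvate and yields ATP without oxygen, and lactate dehydrogenase then reduces pyruvate to lactate, which leaves the cell through monocarboxylate transporters. The pentose phosphate pathway branches off at glucose 6-phosphate: its oxidative arm makes NADPH and its non-oxidative arm exchanges sugars with glycolysis. Many glycolytic genes are targets of the transcription factor HIF-1, whose alpha subunit is hydroxylated by EGLN enzymes and degraded when oxygen is plentiful, and inflammatory activation of macrophages is known to raise both HIF-1 alpha and glycolysis.

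Libraries held 11062542 to 19743776 recovered reads, fewest in the MKP5-KO group. Dusp10 had 4 to 6 reads in MKP5-KO libraries and 38 to 48 in WT libraries. Levels are given as RPKM, the usual measure of reads scaled to exon length and to library size, here TMM-scaled. Macrophage markers (Adgre1, Csf1r, Cd68, Lyz2 and 6 others) were all detected. Their summed level was 6495 to 7394 RPKM in MKP5-KO, 9999 to 11668 RPKM in WT at 24 h and 4259 to 4366 RPKM in WT at 0 h. The sum did not follow each marker. Of the 10, at adjusted p under 0.05, 4 were higher and 3 lower in MKP5-KO against WT at 24 h, beside 11.8% and 16.9% of all genes tested. In WT at 24 h against 0 h 6 were higher and 3 lower, beside 27.5% and 28.1%. MKP5-KO replicate 1 had the fewest reads and stood apart from the other MKP5-KO libraries on the third principal component of all genes (33.0, against -18.6 and -28.3).

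In WT cells at 24 h with ox-LDL most of these transcripts were lower than in WT cells at 0 h. Of the 35 tested members, 32 passed the test (adjusted p under 0.05), 4 higher and 28 lower, beside 55.6% of all genes tested, 27.5% higher and 28.1% lower. The members' shares were 11.4% higher and 80% lower. Their median log2 fold change was -0.61, beside 0.00 over all genes tested. For 34 of the 35 the libraries of the 2 groups did not overlap, beside 64.1% of all genes. The 4 that rose were Pfkm, Pfkfb4, Bnip3l and Taldo1, and the 3 that did not pass were Gpi1, G6pdx and Pgd. Among the 28 lower was Egln3, which had enough reads to be tested only through its WT 0 h libraries. Over all genes 4043 were higher and 4142 lower, and with scaling to ribosomal protein genes the split was 3187 and 5167, with 3 members higher and 30 lower. With upper-quartile scaling it was 4700 and 3719, with 5 members higher and 27 lower.

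In MKP5-KO cells at 24 h part of the list was higher than in WT cells at 24 h. Of the 35 tested members 16 passed, 12 higher and 4 lower, beside 28.8% of all genes tested, 11.8% higher and 16.9% lower. The members' shares were 34.3% higher and 11.4% lower, and their median log2 fold change was 0.09, beside -0.05 over all genes. The groups did not overlap for 20 of 35 members, beside 45% of all genes. The 12 that rose were Slc2a1, Slc16a3, Hk3, Gpi1, Pfkp, Pfkfb4, Tpi1, Eno2, Ldha, Pdk1, Egln1 and Vegfa, and the 4 that fell were Bnip3, Bnip3l, G6pdx and Taldo1. Both comparisons use the same WT 24 h libraries, so a high or low value there enters both with opposite sign. The values of the 2 comparisons are therefore given side by side and no agreement between them is read. Over all genes 1741 were higher and 2494 lower. With median-ratio scaling the split was 2094 and 2012, with 16 members higher and 4 lower, and with upper-quartile scaling 2342 and 1795, with 18 and 4. With scaling to ribosomal protein genes the split was 1586 and 3018, and with voom 1908 and 2798. Each of these 2 settings gave 13 members higher and 6 lower.

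**Figure D1:**
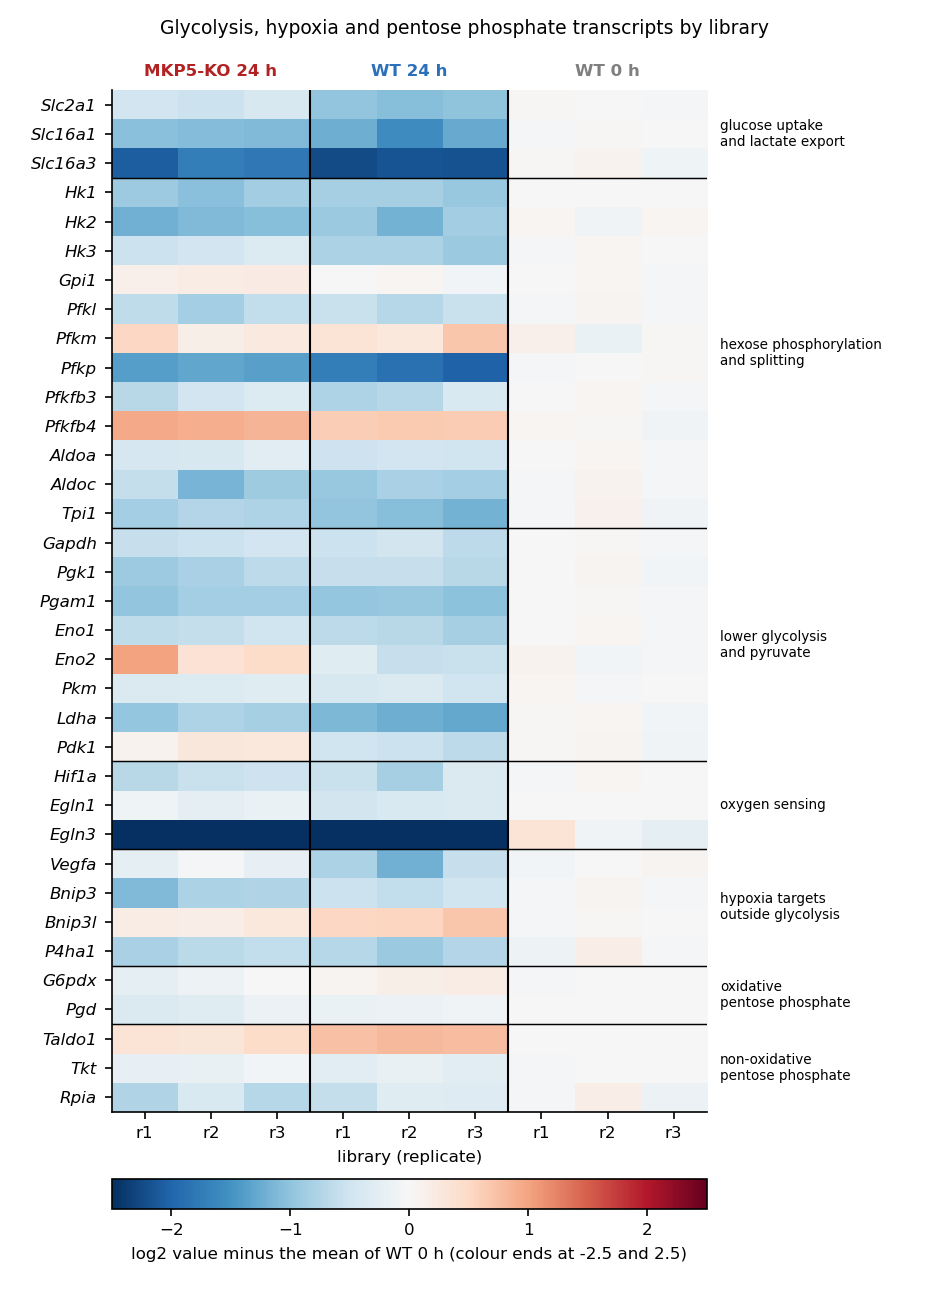
Each row is 1 of the 35 tested members and each column 1 library; colour shows the log2 value minus the mean of the WT 0 h libraries. Most rows are blue in both 24 h groups, and Pfkm, Pfkfb4, Bnip3l and Taldo1 are red in WT at 24 h.

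Promoter sequence was available for 35 of the 36 members (all but Bnip3l), as 50 windows from 250 bases before to 50 after a RefSeq gene start on GRCm38.p6, an earlier build than that of the deposited tables. The core letters of the HIF response element, ACGTG or GCGTG on either strand, stood in a window of 32 of these 35 genes (91.4%), beside 46.7% of all genes in the table and 66.8% of the tested genes in it. A gene was counted if any of its windows matched, and genes differ in their number of windows. The list was chosen to include hypoxia-response genes, so its share of HIF core matches is not independent of that choice. By window, 40 of the 50 (80%) matched, beside 43.8% of all 32851 windows. The E-box CACGTG, bound by MYC and USF proteins among others, contains ACGTG on both strands and was found in 6 of 35 genes (17.1%), beside 8.09% of all genes and 11.6% of tested genes. Windows of 4 members are shown because they hold the HIF core in genes of both directions: Slc16a3 and Ldha, which fell in WT at 24 h and were higher in MKP5-KO, Pfkfb4, higher in both comparisons, and Taldo1, higher in WT at 24 h and lower in MKP5-KO. Capitals mark the HIF core on either strand (CACGT and CACGC are its reverse letters) and, in Ldha, the E-box. All 4 are on the plus strand, at chr11:120948817-120949116 (Slc16a3), chr7:46845554-46845853 (Ldha, the first of its 2 windows), chr9:108991652-108991951 (Pfkfb4) and chr7:141391910-141392209 (Taldo1).
Slc16a3: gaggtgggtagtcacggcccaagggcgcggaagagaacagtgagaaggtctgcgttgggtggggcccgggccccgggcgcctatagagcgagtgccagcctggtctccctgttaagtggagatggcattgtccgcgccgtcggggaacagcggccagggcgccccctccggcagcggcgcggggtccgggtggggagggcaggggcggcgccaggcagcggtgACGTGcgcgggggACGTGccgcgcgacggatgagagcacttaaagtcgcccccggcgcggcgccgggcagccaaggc
Ldha: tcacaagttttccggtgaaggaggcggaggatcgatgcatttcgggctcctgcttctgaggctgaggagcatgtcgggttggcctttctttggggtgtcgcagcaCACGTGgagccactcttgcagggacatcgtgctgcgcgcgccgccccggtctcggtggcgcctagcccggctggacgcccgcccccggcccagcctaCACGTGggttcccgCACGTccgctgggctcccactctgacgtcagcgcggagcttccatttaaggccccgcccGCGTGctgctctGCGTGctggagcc
Pfkfb4: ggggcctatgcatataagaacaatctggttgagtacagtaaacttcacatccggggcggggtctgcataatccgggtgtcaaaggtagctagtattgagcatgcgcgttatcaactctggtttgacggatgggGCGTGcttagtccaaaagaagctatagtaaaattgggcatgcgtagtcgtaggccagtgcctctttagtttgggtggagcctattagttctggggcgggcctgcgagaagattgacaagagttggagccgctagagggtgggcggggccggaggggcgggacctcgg
Taldo1: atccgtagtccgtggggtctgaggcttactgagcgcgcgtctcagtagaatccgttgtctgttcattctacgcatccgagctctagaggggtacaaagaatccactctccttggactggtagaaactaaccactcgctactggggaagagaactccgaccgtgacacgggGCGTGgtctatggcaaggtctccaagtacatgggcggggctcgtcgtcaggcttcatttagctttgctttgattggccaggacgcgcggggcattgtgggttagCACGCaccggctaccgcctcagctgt

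The Slc16a3 window held 2 matches of the HIF core, the Ldha window 7, counting each of its 2 E-boxes on both strands, the Pfkfb4 window 1 and the Taldo1 window 2. A match describes letters only: binding was not measured, and members with a match included those that rose and those that fell.

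Glucose enters through GLUT1, encoded by Slc2a1. Slc2a1 had 16.3, 15.6 and 17.2 RPKM in MKP5-KO cells, 11.4, 10.8 and 11.3 RPKM in WT cells at 24 h, and 23.1, 22.7 and 22.4 RPKM in WT cells at 0 h. The 3 groups did not overlap, and MKP5-KO lay between the WT groups. Slc2a1 was 1.46-fold higher in MKP5-KO than in 24 h WT cells (log2 fold change 0.55 with SE 0.06, adjusted p = 7.48e-05) and 2.03-fold lower in WT at 24 h than at 0 h (-1.02, SE 0.06, adjusted p = 5.79e-08).

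Lactate leaves through MCT4 (Slc16a3), an exporter typical of glycolytic cells, and MCT1 (Slc16a1), which carries lactate and pyruvate both ways. Slc16a3 had 7.19, 9.02 and 8.63 RPKM in MKP5-KO cells, 6.35, 6.72 and 6.60 RPKM in WT cells at 24 h, and 30.6, 31.6 and 27.6 RPKM in WT cells at 0 h. Among glycolytic members its fall in WT at 24 h was the largest, 4.56-fold (log2 fold change -2.19 with SE 0.09, adjusted p = 7.01e-09). It was 1.26-fold higher in MKP5-KO than in 24 h WT cells (0.33, SE 0.09, adjusted p = 0.017), a call lost without MKP5-KO replicate 2 (0.27, adjusted p = 0.0597). Slc16a1 had 2.33, 2.27 and 2.24 RPKM in MKP5-KO cells, 2.08, 1.62 and 2.01 RPKM in WT cells at 24 h and 4.71, 4.93 and 4.86 RPKM in WT cells at 0 h. All libraries of both 24 h groups were below those of WT at 0 h (WT at 24 h against 0 h, log2 fold change -1.35 with SE 0.11). The difference of 0.27 between genotypes did not pass the test (SE 0.11, adjusted p = 0.091), but was called with upper-quartile scaling (adjusted p = 0.0452).

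Hexokinases trap glucose as glucose 6-phosphate. Hk3, the main hexokinase transcript in these cells, had 94.3, 98.6 and 108 RPKM in MKP5-KO cells, 79.0, 79.4 and 71.7 RPKM in WT cells at 24 h, and 132, 142 and 136 RPKM in WT cells at 0 h. It rose in MKP5-KO relative to WT at 24 h (log2 fold change 0.39 with SE 0.06, adjusted p = 0.001), with no overlap between any of the groups. Hk2, the isozyme best known as a HIF-1 target, had 5.49, 5.89 and 6.06 RPKM in MKP5-KO cells, 6.62, 5.59 and 6.90 RPKM in WT cells at 24 h and 13.0, 11.9 and 13.0 RPKM in WT cells at 0 h. Hk2 fell 1.99-fold in WT at 24 h (log2 fold change -0.99 with SE 0.09, adjusted p = 2.23e-06), and the genotypes overlapped (-0.13, adjusted p = 0.29). Hk1, which is bound to mitochondria in most cells, had 13.2, 12 and 13.7 RPKM in MKP5-KO cells, 13.9, 13.9 and 13.0 RPKM in WT cells at 24 h and 25, 24.7 and 25.1 RPKM in WT cells at 0 h. It fell in WT at 24 h (log2 fold change -0.87 with SE 0.06), and its genotypes overlapped.

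Phosphofructokinase-1, which commits sugar to glycolysis, is a tetramer of the products of Pfkl, Pfkm and Pfkp, and these transcripts moved in different directions. Pfkp had 7.11, 7.44 and 7.14 RPKM in MKP5-KO cells, 5.55, 5.03 and 4.51 RPKM in WT cells at 24 h and 18.0, 18.3 and 18.8 RPKM in WT cells at 0 h. It was 3.66-fold lower in WT at 24 h than at 0 h (log2 fold change -1.87 with SE 0.08, adjusted p = 8e-09) and 1.44-fold higher in MKP5-KO than in 24 h WT cells (0.53, SE 0.08, adjusted p = 0.000649). Pfkm had 9.13, 7.10 and 7.60 RPKM in MKP5-KO cells, 8.10, 7.72 and 10.3 RPKM in WT cells at 24 h and 7.02, 5.72 and 6.53 RPKM in WT cells at 0 h. Its rise in WT at 24 h was small (log2 fold change 0.43 with SE 0.13, adjusted p = 0.0136) and was not called without WT 0 h replicate 2 (adjusted p = 0.0578), without WT 24 h replicate 3 (adjusted p = 0.0503) or with scaling to ribosomal protein genes (adjusted p = 0.078). Pfkl had 9.76, 8.42 and 9.90 RPKM in MKP5-KO cells, 10.2, 9.26 and 10.2 RPKM in WT cells at 24 h and 14.8, 15.7 and 14.8 RPKM in WT cells at 0 h, and fell in WT at 24 h (log2 fold change -0.61 with SE 0.08).

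As shares of the summed level of the 3 phosphofructokinase-1 transcripts, Pfkp held 29.6 ± 2.58% in MKP5-KO, 21.4 ± 2.91% in 24 h WT cells and 46.0 ± 0.767% in 0 h WT cells (SD, n = 3 each). Pfkm held 32.3 ± 2.45% in MKP5-KO, 36.7 ± 3.94% in 24 h WT cells and 16.1 ± 1.63% in 0 h WT cells. The Pfkp share did not overlap between MKP5-KO and WT at 24 h or between the WT groups, each at p = 0.1 in an exact two-sided permutation test, the smallest p that 3 against 3 libraries allow. The Pfkm share overlapped between the genotypes (exact permutation p = 0.3).

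The bifunctional PFKFB enzymes make and remove fructose 2,6-bisphosphate, the strongest activator of phosphofructokinase-1. Pfkfb4 had 15.3, 14.9 and 14.2 RPKM in MKP5-KO cells, 12.2, 12.6 and 12.3 RPKM in WT cells at 24 h and 8.18, 8.15 and 7.50 RPKM in WT cells at 0 h. It was the only member called higher both in WT at 24 h against 0 h (log2 fold change 0.64 with SE 0.06, adjusted p = 3.5e-06) and in MKP5-KO against WT at 24 h (0.26, SE 0.06, adjusted p = 0.00802). Pfkfb3, the isoform with the highest kinase activity, had 2.98, 3.46 and 3.82 RPKM in MKP5-KO cells, 2.81, 2.95 and 3.71 RPKM in WT cells at 24 h and 4.80, 4.96 and 4.72 RPKM in WT cells at 0 h. It fell in WT at 24 h (log2 fold change -0.62 with SE 0.12) and overlapped between genotypes. Pfkfb4 made up 81.2 ± 2.41% of the summed Pfkfb3 and Pfkfb4 level in MKP5-KO, 79.7 ± 2.47% in 24 h WT cells and 62.2 ± 0.809% in 0 h WT cells (SD, n = 3 each).

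**Figure D2:**
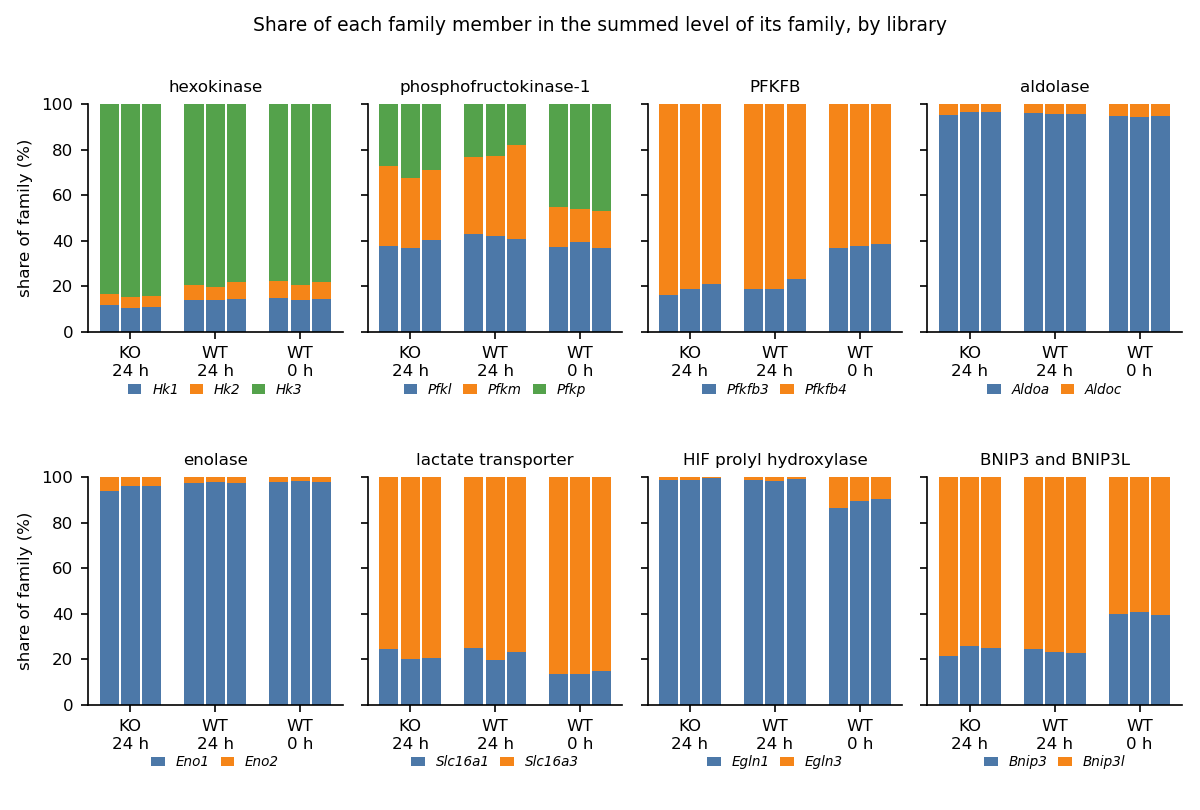
Each bar is 1 library and shows the share (%) of each transcript in the summed RPKM of its family, for 8 families, with MKP5-KO at 24 h, WT at 24 h and WT at 0 h from left to right. The Pfkp share is largest in WT at 0 h (46.0% on average), and the Pfkfb4 and Bnip3l shares are larger in both 24 h groups than at 0 h.

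Among the remaining enzymes of the upper pathway, Tpi1, which interconverts the triose phosphates, had 91.0, 97.9 and 96.1 RPKM in MKP5-KO cells, 82.1, 77.9 and 71.5 RPKM in WT cells at 24 h and 161, 176 and 153 RPKM in WT cells at 0 h. It fell 2.12-fold in WT at 24 h (log2 fold change -1.08 with SE 0.06, adjusted p = 1.04e-07) and was 1.23-fold higher in MKP5-KO than in 24 h WT cells (0.30, SE 0.06, adjusted p = 0.00578). Aldoc, a minor aldolase here, had 15.3, 10.4 and 12.5 RPKM in MKP5-KO cells, 12, 13.2 and 12.9 RPKM in WT cells at 24 h and 22.6, 24.6 and 22.2 RPKM in WT cells at 0 h. The 24 h groups overlapped and both lay below WT at 0 h (WT at 24 h against 0 h, log2 fold change -0.87 with SE 0.11). Aldoa, the main aldolase, fell less (log2 fold change -0.49 with SE 0.05). Between genotypes Aldoa did not pass (0.13, SE 0.05, adjusted p = 0.0598). It was called higher in MKP5-KO with median-ratio scaling (adjusted p = 0.00957), upper-quartile scaling (0.00456) and ribosomal protein scaling (0.046). Gpi1, which turns glucose 6-phosphate into fructose 6-phosphate, averaged 83.4 RPKM in MKP5-KO, 73.9 RPKM in WT at 24 h and 74.0 RPKM in WT at 0 h. Its higher level in MKP5-KO than in 24 h WT cells (0.17, SE 0.05, adjusted p = 0.0178) was not called without MKP5-KO replicate 3 (adjusted p = 0.0508), without WT 24 h replicate 3 (adjusted p = 0.0584) or without the trend and robust options of the model (adjusted p = 0.0604). With ribosomal protein scaling Gpi1 was called lower in WT at 24 h against 0 h (-0.13, adjusted p = 0.0307).

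All 8 tested members of lower glycolysis and pyruvate handling fell in WT at 24 h, beside 28.1% of all genes. Their median log2 fold change was -0.59, beside 0.00 over all genes. Ldha, which makes lactate, had 121, 138 and 133 RPKM in MKP5-KO cells, 109, 101 and 97.5 RPKM in WT cells at 24 h and 242, 243 and 224 RPKM in WT cells at 0 h. Ldha fell 2.30-fold in WT at 24 h (log2 fold change -1.20 with SE 0.06, adjusted p = 3.7e-08) and was 1.27-fold higher in MKP5-KO than in 24 h WT cells (0.35, SE 0.06, adjusted p = 0.00224), with no overlap between any of the groups. Pgam1, the phosphoglycerate mutase, had 114, 125 and 124 RPKM in MKP5-KO cells, 116, 117 and 111 RPKM in WT cells at 24 h and 226, 231 and 219 RPKM in WT cells at 0 h. Both 24 h groups overlapped for Pgam1 (log2 fold change 0.08, adjusted p = 0.25) and lay below WT at 0 h (WT at 24 h against 0 h, -0.98, SE 0.05). Pgam1 was called higher in MKP5-KO than in 24 h WT cells with median-ratio scaling (adjusted p = 0.0477) and upper-quartile scaling (0.0175).

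The most abundant members were Pkm (pyruvate kinase, 414 RPKM in MKP5-KO, 392 RPKM in WT at 24 h and 523 RPKM in WT at 0 h on average), Aldoa and Gapdh (glyceraldehyde 3-phosphate dehydrogenase). Pkm did not pass between genotypes (log2 fold change 0.08, adjusted p = 0.2), but was called higher in MKP5-KO with upper-quartile scaling (adjusted p = 0.0379). Gapdh averaged 275 RPKM in MKP5-KO, 272 RPKM in WT at 24 h and 397 RPKM in WT at 0 h, and fell in WT at 24 h (log2 fold change -0.55 with SE 0.05). Pgk1 and Eno1, the phosphoglycerate kinase and the main enolase, fell in WT at 24 h by log2 fold changes of -0.62 and -0.73. Neither passed the test between genotypes, at -0.17 for Pgk1 (adjusted p = 0.067) and 0.16 for Eno1 (adjusted p = 0.058). Pgk1 was called lower in MKP5-KO without MKP5-KO replicate 3 (adjusted p = 0.0152), with voom (0.0438) and with ribosomal protein scaling (0.0265). Eno1 was called higher without WT 24 h replicate 1 (adjusted p = 0.0394), with voom (0.0338), with median-ratio scaling (0.0181) and with upper-quartile scaling (0.0109).

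Eno2, the enolase known from neurons, had 7.21, 4.58 and 4.90 RPKM in MKP5-KO cells, 2.89, 2.40 and 2.42 RPKM in WT cells at 24 h and 3.81, 3.42 and 3.51 RPKM in WT cells at 0 h. MKP5-KO libraries were the highest, replicate 1 most of all. Eno2 had the largest genotype difference of the list, 2.13-fold (log2 fold change 1.09 with SE 0.16, adjusted p = 0.000619), and without MKP5-KO replicate 1 it remained called (log2 fold change 0.89, adjusted p = 0.000806). Eno2 made up 4.46 ± 1.25% of summed enolase transcripts in MKP5-KO and 2.33 ± 0.178% in WT at 24 h (SD, n = 3 each). Its fall in WT at 24 h against 0 h (-0.48, adjusted p = 0.021) was not called without WT 0 h replicate 1 (adjusted p = 0.0678), WT 24 h replicate 2 (adjusted p = 0.0673) or WT 24 h replicate 3 (adjusted p = 0.0603).

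Pdk1, a kinase that switches off pyruvate dehydrogenase and so keeps pyruvate out of mitochondria, had 11.2, 12.9 and 12.7 RPKM in MKP5-KO cells, 7.51, 7.26 and 6.67 RPKM in WT cells at 24 h and 10.8, 11.0 and 9.92 RPKM in WT cells at 0 h. It was 1.71-fold higher in MKP5-KO than in 24 h WT cells (log2 fold change 0.78 with SE 0.08, adjusted p = 6.8e-05) and fell in WT at 24 h against 0 h (-0.57, SE 0.08, adjusted p = 7.7e-05). The MKP5-KO libraries lay above every library of both WT groups.

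**Figure D3:**
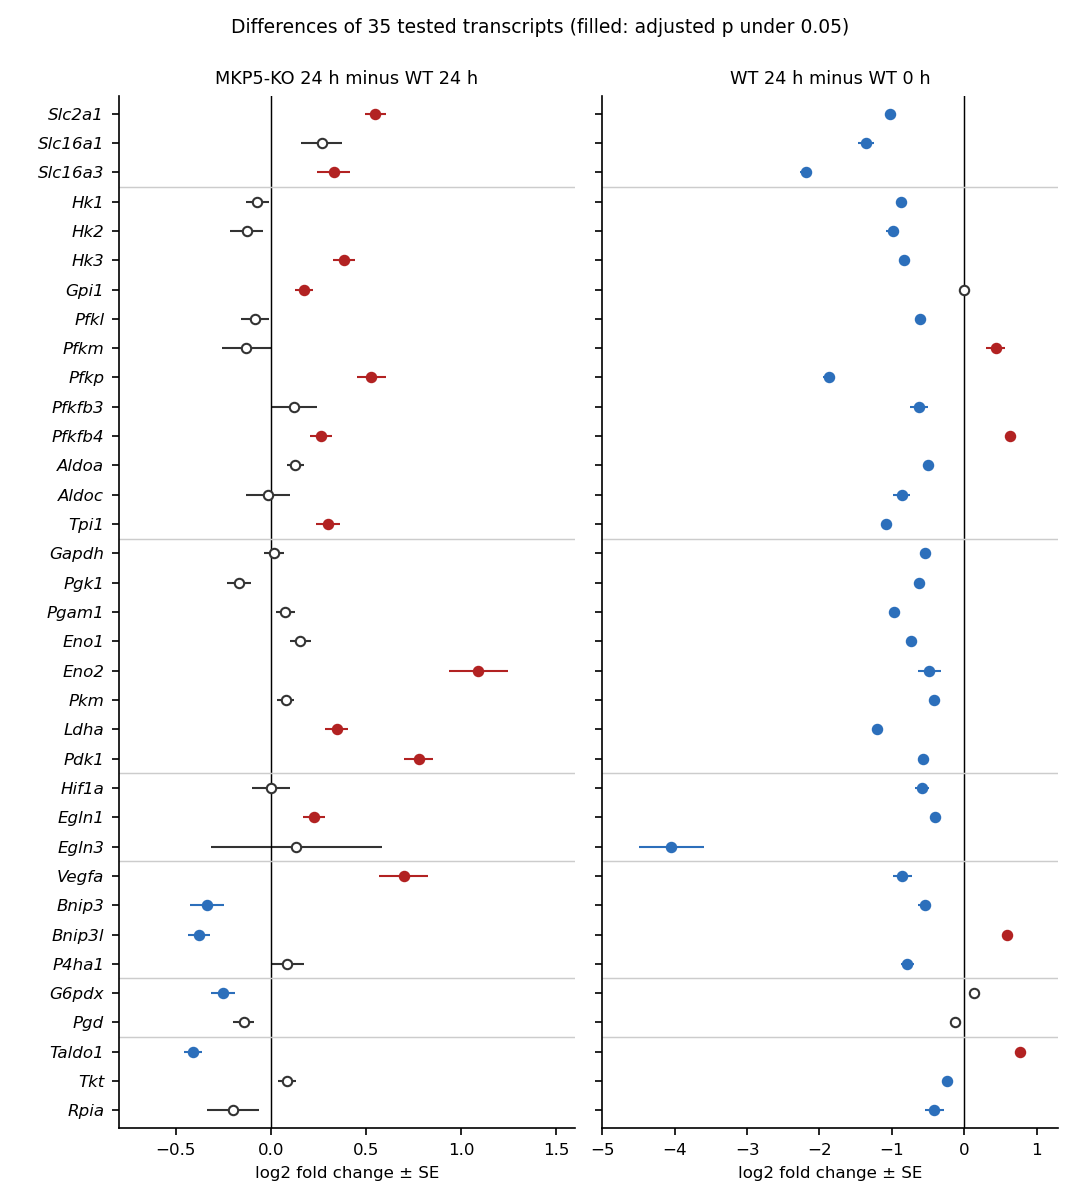
Points are log2 fold changes with standard errors for the 35 tested members, in order of role, for MKP5-KO against WT at 24 h (left) and WT at 24 h against 0 h (right). Filled points passed the test (adjusted p under 0.05), red for higher and blue for lower. The scales of the panels differ.

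The 3 members of oxygen sensing all fell in WT at 24 h, beside 28.1% of all genes. Hif1a averaged 15.1 RPKM in MKP5-KO, 15.2 RPKM in WT at 24 h and 22.6 RPKM in WT at 0 h (WT at 24 h against 0 h, log2 fold change -0.58 with SE 0.10, adjusted p = 0.00047), with a genotype difference of 0.00 (SE 0.10). HIF-1 alpha is controlled mainly as a protein, which was not measured. Egln3, a hydroxylase that HIF-1 itself induces, had 5, 5 and 2 reads in MKP5-KO cells, 5, 8 and 3 reads in WT cells at 24 h and 97, 76 and 65 reads in WT cells at 0 h. Egln3 had enough reads to be tested only through its WT 0 h libraries, so a lower level at 24 h was favoured by how it entered the test. The level was 16.6-fold lower in WT at 24 h, the largest difference of the list (log2 fold change -4.05 with SE 0.45, adjusted p = 1.53e-05). That p-value is not independent of the filter on reads. The genotypes overlapped at these few reads. Egln1, the main oxygen-dependent HIF hydroxylase, had 11.9, 10.7 and 11.4 RPKM in MKP5-KO cells, 9.27, 9.82 and 9.98 RPKM in WT cells at 24 h and 12.8 RPKM in each WT library at 0 h. It fell in WT at 24 h (-0.40, SE 0.06) and was higher in MKP5-KO than in 24 h WT cells (0.23, SE 0.06, adjusted p = 0.0164), which missed the threshold once WT 24 h replicate 1 was left out (adjusted p = 0.0531).

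Hypoxia targets outside glycolysis did not move together between genotypes. Vegfa, the main angiogenic growth factor, had 16.1, 18.3 and 16.4 RPKM in MKP5-KO cells, 10.9, 8.23 and 12.6 RPKM in WT cells at 24 h and 18.0, 19.0 and 19.7 RPKM in WT cells at 0 h. It was 1.62-fold higher in MKP5-KO than in 24 h WT cells (log2 fold change 0.70 with SE 0.13, adjusted p = 0.00302) and lower in WT at 24 h than at 0 h (-0.86, SE 0.13, adjusted p = 0.0002). MKP5-KO overlapped with WT at 0 h and not with WT at 24 h.

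Bnip3 and Bnip3l encode related receptors for the removal of mitochondria by autophagy. Bnip3 had 6.77, 8.45 and 8.59 RPKM in MKP5-KO cells, 10.1, 9.48 and 10.3 RPKM in WT cells at 24 h and 14.2, 15.3 and 14.1 RPKM in WT cells at 0 h. It fell in both comparisons, with log2 fold changes of -0.33 in MKP5-KO against WT at 24 h (SE 0.09, adjusted p = 0.0183; 0.0571 without WT 24 h replicate 3) and -0.55 in WT at 24 h against 0 h (SE 0.09, adjusted p = 0.00031). Bnip3l had 24.8, 24.6 and 26.2 RPKM in MKP5-KO cells, 31.0, 31.8 and 35.4 RPKM in WT cells at 24 h and 21.3, 22.2 and 21.9 RPKM in WT cells at 0 h. Its WT 24 h libraries were the highest, so it rose in WT at 24 h (log2 fold change 0.58 with SE 0.06, adjusted p = 6.57e-06) and was lower in MKP5-KO than in 24 h WT cells (-0.38, SE 0.06, adjusted p = 0.001). Bnip3l held 76.1 ± 2.15% of the summed level of the pair in MKP5-KO, 76.6 ± 1.02% in 24 h WT cells and 60.0 ± 0.795% in 0 h WT cells (SD, n = 3 each).

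P4ha1, a collagen prolyl hydroxylase subunit, fell in WT at 24 h (log2 fold change -0.79 with SE 0.09) and overlapped between genotypes (0.09, adjusted p = 0.47). Adm, which encodes the vasodilator adrenomedullin, had no reads in MKP5-KO, 1 read in WT at 24 h and 8 reads in WT at 0 h over each group's 3 libraries, too few to test.

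Of the 5 pentose phosphate members 1 rose and 2 fell in WT at 24 h, beside 27.5% and 28.1% of all genes. In MKP5-KO against WT at 24 h 0 rose and 2 fell, beside 11.8% and 16.9% of all genes. G6pdx and Pgd, the NADPH-making dehydrogenases of the oxidative arm, had differences of 0.13 (SE 0.06, adjusted p = 0.099) and -0.13 (SE 0.05, adjusted p = 0.06), in WT at 24 h against 0 h, and neither passed the test. The fall of Pgd was called with voom (adjusted p = 0.0354), median-ratio scaling (0.0257), only the 2 groups compared (0.0193) and ribosomal protein scaling (0.000412). The rise of G6pdx was called with only the 2 groups compared (adjusted p = 0.0321), the replicate number as a block (0.047) and upper-quartile scaling (0.00432). G6pdx, the entry enzyme, had 69.8, 76.3 and 83.8 RPKM in MKP5-KO cells, 87.1, 91.8 and 94.1 RPKM in WT cells at 24 h and 81.8, 83.4 and 84.2 RPKM in WT cells at 0 h. It was lower in MKP5-KO than in 24 h WT cells (log2 fold change -0.25 with SE 0.06, adjusted p = 0.0129), with MKP5-KO replicate 1, the shallowest library, lowest of all. Pgd averaged 68.4 RPKM in MKP5-KO, 75.4 RPKM in WT at 24 h and 82.6 RPKM in WT at 0 h. Between genotypes Pgd did not pass (-0.14, adjusted p = 0.072), but was called lower without MKP5-KO replicate 3 (adjusted p = 0.0114), with voom (0.0474) and with ribosomal protein scaling (0.0164).

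Taldo1, the transaldolase of the non-oxidative arm, had 178, 173 and 193 RPKM in MKP5-KO cells, 234, 246 and 242 RPKM in WT cells at 24 h and 141, 142 and 141 RPKM in WT cells at 0 h. The 3 groups did not overlap, and WT at 24 h was the highest. Taldo1 rose 1.71-fold in WT at 24 h (log2 fold change 0.77 with SE 0.05, adjusted p = 1.28e-07), the largest rise of the list, and stood 1.33-fold lower in MKP5-KO cells than in 24 h WT cells (-0.41, SE 0.05, adjusted p = 0.000164). Its partner Tkt, the transketolase, fell in WT at 24 h (log2 fold change -0.24 with SE 0.05, adjusted p = 0.0017) and did not pass between genotypes (0.09, adjusted p = 0.21), though it was called higher in MKP5-KO with median-ratio scaling (adjusted p = 0.0412) and upper-quartile scaling (0.0167). Rpia, the ribose 5-phosphate isomerase, fell in WT at 24 h (-0.41, SE 0.14, adjusted p = 0.025), a call lost without WT 0 h replicate 1, without WT 0 h replicate 2 or without WT 24 h replicate 1 (adjusted p = 0.0543, 0.101 and 0.0954).

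**Figure D4:**
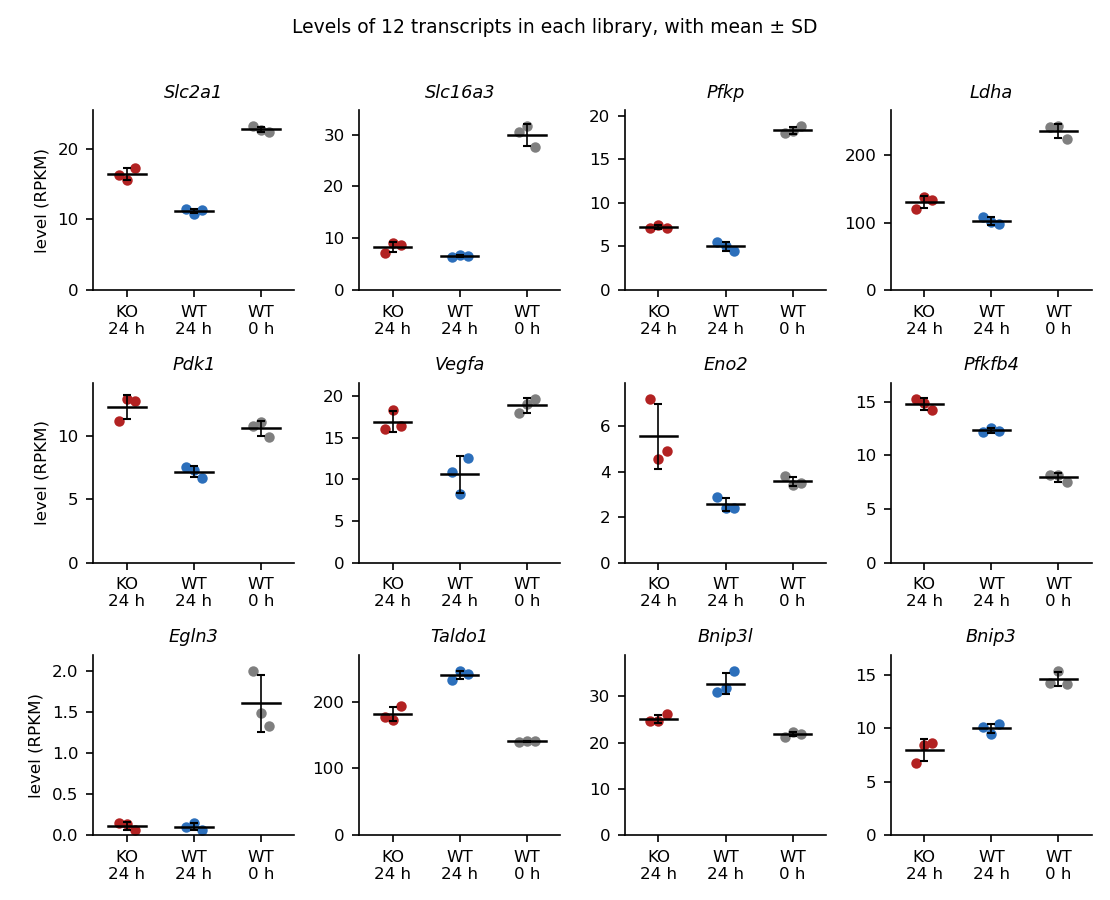
Each point is 1 library's level (RPKM) of 1 of 12 members, with the mean (long bar) and SD (short caps) of MKP5-KO at 24 h, WT at 24 h and WT at 0 h. Slc2a1, Pfkp and Ldha in MKP5-KO lie between the WT groups, and Taldo1 and Bnip3l are highest in WT at 24 h.

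Against WT at 0 h, MKP5-KO cells at 24 h also had 32 of 35 members past the test, 6 higher and 26 lower, beside 56.4% of all genes tested, 25% higher and 31.4% lower. The median log2 fold change was -0.53, beside -0.02 over all genes, and 33 of the 35 members did not overlap, beside 63.4% of all genes. The 6 higher were Gpi1, Pfkfb4, Eno2, Pdk1, Bnip3l and Taldo1. Among the 26 lower was Egln3, which had enough reads to be tested only through its WT 0 h libraries. Vegfa (-0.16, SE 0.13, adjusted p = 0.32), G6pdx (-0.12, SE 0.06, adjusted p = 0.12) and Pfkm (0.30, SE 0.13, adjusted p = 0.063) did not pass. Of the members higher in MKP5-KO than in 24 h WT cells, Slc2a1 (-0.47), Slc16a3 (-1.86), Hk3 (-0.45), Pfkp (-1.34), Tpi1 (-0.78), Ldha (-0.86) and Egln1 (-0.17) were below WT at 0 h in MKP5-KO. The higher level of Pdk1 (0.21, adjusted p = 0.036) was not called without MKP5-KO replicate 2 (adjusted p = 0.116) or 3 (0.101), or without WT 0 h replicate 1 (0.0622) or 3 (0.134), nor with no filter on low values (0.0642) or without the trend and robust options (0.0612). Egln1 was not called without MKP5-KO replicate 2 (adjusted p = 0.1) or any 1 WT 0 h replicate (0.0623 to 0.0692), nor Tkt (-0.15, adjusted p = 0.023) without MKP5-KO replicate 1 (0.0664) or 2 (0.0757) or WT 0 h replicate 2 (0.0644) or 3 (0.0634). With upper-quartile scaling Egln1 (-0.04, adjusted p = 0.643) and Tkt (-0.01, adjusted p = 0.823) were not called. Egln1 was also not called with median-ratio scaling (adjusted p = 0.0786) or with no filter (0.0553), nor Tkt without the trend and robust options (0.0616). Pfkm was called higher without MKP5-KO replicate 2 (adjusted p = 0.0431) and G6pdx lower without MKP5-KO replicate 3 (0.0169). Over all genes 3680 were higher and 4624 lower, and the split was 4922 and 3538 with upper-quartile scaling and 2612 and 6063 with scaling to ribosomal protein genes. With the ribosomal scaling 3 members were called higher, since Gpi1 (adjusted p = 0.647), Pdk1 (adjusted p = 0.47) and Bnip3l (adjusted p = 0.293) no longer passed.

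Genes of neighbouring pathways, from lists of textbook members, were counted in WT at 24 h against 0 h, where 27.5% of all genes tested were higher and 28.1% lower. Of 15 other tested glycolysis genes 1 rose and 5 fell. Among the 5 were Tigar, which lowers fructose 2,6-bisphosphate (-1.43), and the phosphoglucomutase gene Pgm1 (-1.16). They also included Pgam5 (-0.70), listed by name although its product is a mitochondrial protein phosphatase. Of 9 other pentose phosphate genes 2 rose and 4 fell, and of 10 other glucose and lactate transport genes 6 rose, among them Slc16a7 (MCT2, 1.02), Emb, which encodes a chaperone of lactate transporters (1.01), and Slc2a8 (0.96), and 2 fell, Slc2a3 (GLUT3, -1.29) and Slc2a6 (GLUT6, -1.73). Of 19 genes of pyruvate fate 3 rose and 12 fell. Pdk2, another pyruvate dehydrogenase kinase, averaged 6.67 ± 0.552 RPKM in WT at 24 h and 1.26 ± 0.160 RPKM in WT at 0 h (SD, n = 3 each; log2 fold change 2.41, adjusted p = 1.79e-08), whereas the phosphatase gene Pdp1 fell (-1.02). Of 19 TCA cycle genes 6 rose and 9 fell, Acod1, which makes itaconate from a TCA intermediate, most (-3.37), and of 16 genes of glycogen, hexosamine and glycerol metabolism 1 rose, the glycogen phosphorylase gene Pygl (1.16), and 8 fell.

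The same lists were counted in MKP5-KO against WT at 24 h, where 11.8% of all genes tested were higher and 16.9% lower. Of the other glycolysis genes 1 was higher and 2 lower. The higher one was Pgam5 (0.34), whose product is not a glycolytic enzyme. Of the other pentose phosphate genes 0 were higher and 1 lower, and of the transport genes 2 were higher and 4 lower. Slc2a6 averaged 14.8 ± 2.14 RPKM in MKP5-KO and 8.88 ± 0.747 RPKM in WT at 24 h (SD, n = 3 each; log2 fold change 0.74, adjusted p = 0.000387), and the other transport gene that was higher was Slc37a2 (0.49). Emb (-0.42) and Slc16a7 (-0.38) were lower. Of the genes of pyruvate fate 0 were higher and 6 lower, Pcx (pyruvate carboxylase, -0.94) and Me1 (malic enzyme, -0.67) among them, and of the glycogen list 0 were higher and 4 lower, Pygl (-0.55) and the hexosamine gene Gnpda1 (-0.60) among them. Of the TCA cycle genes 1 was higher (Idh3a, 0.41) and 6 were lower.

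**Figure D5:**
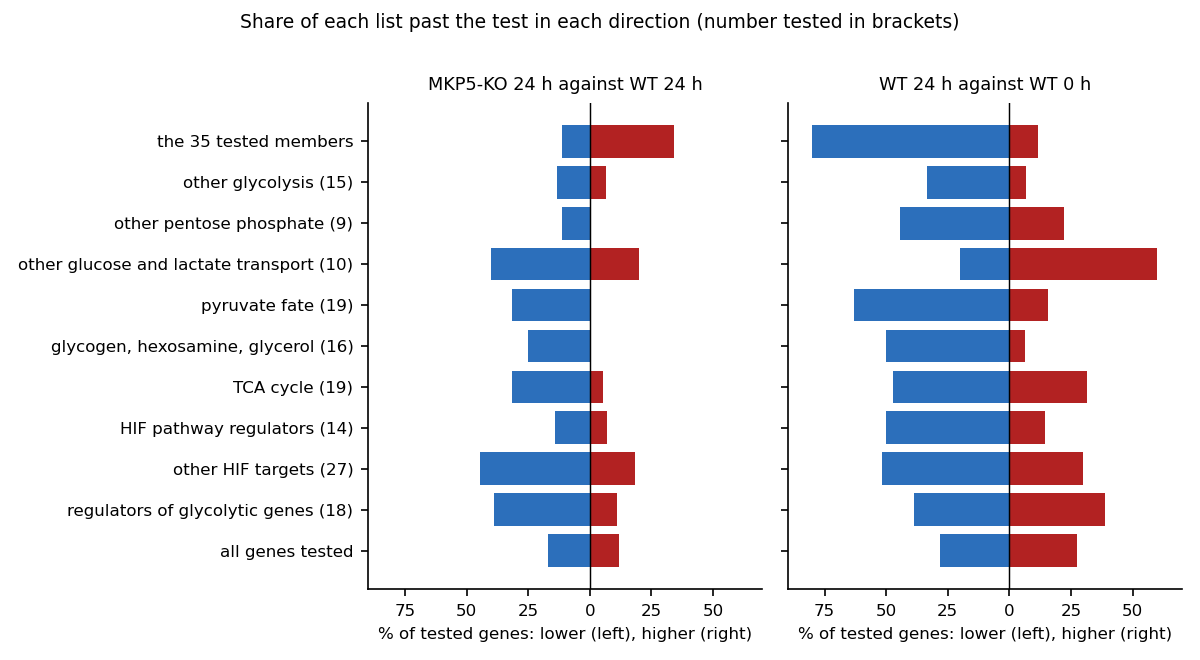
Bars give the share (%) of tested genes past the test, higher to the right and lower to the left, for the 35 members, 9 lists of neighbouring genes with the number tested in brackets, and all genes tested. The panels are MKP5-KO against WT at 24 h (left) and WT at 24 h against 0 h (right). The members' share is 34.3% higher in MKP5-KO and 80% lower in WT at 24 h.

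Regulators and other targets of the HIF pathway were read beside the same shares of all genes, 11.8% higher and 16.9% lower in MKP5-KO against WT at 24 h and 27.5% higher and 28.1% lower in WT at 24 h against 0 h. Of 14 HIF pathway regulators 1 was higher and 2 lower in MKP5-KO against WT at 24 h, and 2 rose and 7 fell in WT at 24 h against 0 h. Arnt, the partner of HIF-1 alpha, was lower in MKP5-KO (-0.35) and higher in WT at 24 h (0.21). Of 27 other HIF targets 5 were higher and 12 lower in MKP5-KO, and 8 rose and 14 fell in WT at 24 h. Bhlhe40, a transcription factor, averaged 5.67 ± 0.382 RPKM in MKP5-KO, 2.14 ± 0.114 RPKM in WT at 24 h and 3.76 ± 0.283 RPKM in WT at 0 h (SD, n = 3 each). It was higher in MKP5-KO than in 24 h WT cells (log2 fold change 1.40, adjusted p = 6.24e-06) and fell in WT at 24 h (-0.81). Ccng2, a cyclin-family gene of cell cycle arrest, went the other way, lower in MKP5-KO (-0.80) and higher in WT at 24 h (2.15), and Ero1a, an oxidase of the endoplasmic reticulum, was lower in both (-0.25 and -2.20).

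Of 18 transcription and signalling regulators of glycolytic genes 2 were higher and 7 lower in MKP5-KO against WT at 24 h, beside 11.8% and 16.9% of all genes. In WT at 24 h against 0 h 7 of them rose and 7 fell, beside 27.5% and 28.1% of all genes. Myc, which drives many glycolytic genes, averaged 6.52 ± 0.714 RPKM in MKP5-KO, 2.09 ± 0.128 RPKM in WT at 24 h and 16.9 ± 2.08 RPKM in WT at 0 h (SD, n = 3 each). It was higher in MKP5-KO than in 24 h WT cells (log2 fold change 1.64 with SE 0.11, adjusted p = 5.52e-06) and fell in WT at 24 h (-3.01, SE 0.11, adjusted p = 3.38e-09). Usf1, an E-box factor, was lower in MKP5-KO (-0.41) and rose in WT at 24 h (0.91).

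Markers of other cells moved between the same groups, and in bulk RNA fewer cells of a type and less RNA per cell cannot be told apart. The summed level of 12 fibroblast and stroma markers was 4.16 to 9.92 RPKM in MKP5-KO, 25.2 to 31.2 RPKM in WT at 24 h and 2.56 to 3.46 RPKM in WT at 0 h. Of 10 tested, 1 was higher and 8 lower in MKP5-KO against WT at 24 h, beside 11.8% and 16.9% of all genes. In WT at 24 h against 0 h 8 rose and 0 fell, beside 27.5% and 28.1% of all genes. The summed level of 12 neutrophil markers was 4.09 to 5.65 RPKM in MKP5-KO, 10.1 to 11.2 RPKM in WT at 24 h and 124 to 135 RPKM in WT at 0 h. That of 5 monocyte markers was 6.66 to 7.77, 4.96 to 5.87 and 85.4 to 91.2 RPKM in the same groups. Of 9 neutrophil markers tested, 0 were higher and 1 lower in MKP5-KO against WT at 24 h, with a median log2 fold change of 0.47. Of the 5 monocyte markers 1 was higher and 0 lower in that comparison. The shares of all genes there were 11.8% and 16.9%. In both 24 h groups Camp, Elane, Retnlg and Ly6g were at 0 reads. The 10 proliferation markers summed to 272 to 294 RPKM in MKP5-KO, 212 to 305 RPKM in WT at 24 h and 316 to 326 RPKM in WT at 0 h. Of these markers 3 were higher and 4 lower in MKP5-KO against WT at 24 h, beside 11.8% and 16.9% of all genes. In WT at 24 h against 0 h 5 rose and 4 fell, beside 27.5% and 28.1%. The part of all these markers in the results above was not tested. G6pdx and Pgk1 are X-linked, and all 9 libraries held Y-linked transcripts such as Ddx3y and at most 0.368 RPKM of Xist.

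Some members share sequence or exons with other genes, and how reads were counted is not given in the sources used here. Exons of 14 members overlap another annotated gene, and for Pfkm (Senp1, 151% of the member's median reads), Pfkp (Pitrm1, 70.8%), G6pdx (Ikbkg, 25.7%) and Tpi1 (Spsb2, 15.7%) that neighbour, on the opposite strand, was itself well expressed. Named processed copies held at most 5.38% of the reads of their parent gene in any library (Pgam1).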

How the data were processed

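Per the labels' protocols, total RNA was extracted with a Qiagen kit, 1 µg went into each library, and Genewiz/Azenta built the libraries. Reads were aligned with STAR to GRCm39, per the submitters' processing notes; for versions, annotation, counting tool and strand setting, no entry is given in the sources used here. The deposited values are log2 normalized counts scaled by TMM, per the file headers. Each equals a library constant plus the log2 of (reads + 0.5) over exon length: of the genes low enough in reads for this check, 93.05% gave whole reads (within 0.004) at GENCODE M21 exon lengths. RPKM levels are 2 to the power of the deposited value. Adm and Egln3 are given as recovered reads.

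The 14727 genes tested had 10 or more reads, scaled to the median depth, in 3 libraries, and 15 or more in all. One limma 3.58.1 model (R 4.3.3, trend and robust options) held a mean per group over 9 libraries, with two-sided tests and Benjamini-Hochberg adjustment over all genes tested. Fold changes stay on that log2 scale and so understate changes of genes with few reads. Depth ran from 11062542 to 19743776 reads. The model was also tested on simulated data. Each comparison was refitted under 15 alternatives, 1 of them (ribosomal protein scaling) chosen after seeing the data. Values in every library are given for the 10 members with the largest called change in each of the WT 24 h and MKP5-KO comparisons, for members called in opposite directions, and for families that differ in direction; list genes named are among the 4 with the smallest p in their list and direction in at least 1 of these comparisons. The members and lists were chosen with earlier results of these data known.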

Additional observations from a re-analysis of the deposited data

How the results depend on the processing

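No call changed direction under any of the 15 alternatives in any comparison. Among members not called, the sign of the log2 fold change turned under at least 1 alternative for Aldoc, Egln3, Gapdh and Hif1a in MKP5-KO against WT at 24 h, Gpi1 in WT at 24 h against 0 h and G6pdx in MKP5-KO against WT at 0 h. In MKP5-KO against WT at 24 h, 23 of 35 members kept their side of the threshold under all of them, and 29 did in WT at 24 h against 0 h and 28 in MKP5-KO at 24 h against WT at 0 h. The members' median log2 fold change moved with the scaling of the libraries. With upper-quartile scaling it was 0.16 in MKP5-KO against WT at 24 h, -0.54 in WT at 24 h against 0 h and -0.39 in MKP5-KO against WT at 0 h. With scaling to ribosomal protein genes it was -0.74 in WT at 24 h against 0 h and -0.68 in MKP5-KO against WT at 0 h, where 3 members were called higher. These scalings move every gene by 1 amount per library: the median over all genes became -0.12 and -0.17 in those 2 comparisons with ribosomal scaling and 0.12 in MKP5-KO against WT at 0 h with upper-quartile scaling.

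Leaving out 1 library at a time gave 14 to 17 members called in MKP5-KO against WT at 24 h (11 to 12 higher, 3 to 6 lower), 30 to 32 in WT at 24 h against 0 h and 29 to 32 in MKP5-KO against WT at 0 h. Of the 14727 genes tested, 2845 to 4033, 7462 to 7705 and 7221 to 7981 were called in the same comparisons. Over all genes the lower calls in MKP5-KO against WT at 24 h ranged from 1659, without WT 24 h replicate 2, to 2413. The deviations of same-numbered libraries correlated at 0.145, 0.0164 and 0.0391 between MKP5-KO and WT at 24 h, at 0.0262, 0.0184 and -0.0227 between the WT groups and at 0.194, 0.0776 and 0.0164 between MKP5-KO and WT at 0 h. The labels do not say what the replicate numbers mark, so the numbers were not taken to pair the libraries. With the replicate number as a block, 16 members were called in MKP5-KO against WT at 24 h, 33 in WT at 24 h against 0 h (G6pdx added, adjusted p = 0.047) and 33 in MKP5-KO against WT at 0 h (Pfkm added, adjusted p = 0.0372). With that block 4394, 8221 and 8451 of the 14727 genes tested were called in the same comparisons. Egln3 and Adm are limited by depth, at 2 to 8 and 0 to 1 reads per library at 24 h.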
